A study of Mus musculus with 12 samples.

Results

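Lamins, nesprins and their partners form the shell of the nucleus and its link to the cytoskeleton. The 10 genes described here are Lmna, Lmnb1, Lmnb2, Sun1, Sun2, Syne1, Syne2, Syne3, Emd and Tmpo. They were chosen by symbol, each was matched to 1 Ensembl gene, and they are 10 of the 46983 genes in the deposited table. Illumina paired-end reads of RNA were obtained from C2C12 cells, mouse myoblasts in culture that stop dividing and fuse into multinucleated myotubes when they differentiate. The 4 groups were WT_0d, WT_5d, PPARγ/+_0d and PPARγ/+_5d, with 3 libraries each and 12 in all. The labels call the WT genotype wild type, and the titles of these libraries also carry the name of the PB-IP vector. PPARγ/+ cells had received the same PiggyBac vector with the coding sequence of PPARγ, together with a transposase, and had been selected with puromycin. PPARγ is the nuclear receptor that drives fat cell formation. Cells were collected at the start of differentiation (0d) and on day 5 (5d). The series text calls the PPARγ/+ cells inducible without naming an inducer, and the sources used here do not say how many clones the selected cells held. The labels number 3 replicates per group and the study calls them biological replicates, without saying whether they were separate cultures, so p-values measure the spread between these libraries.

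The nuclear lamina is a meshwork of lamin filaments under the inner nuclear membrane. Lmna encodes the A-type lamins A and C, and Lmnb1 and Lmnb2 encode the B-type lamins. SUN proteins cross the inner membrane and bind nesprins in the outer membrane, which reach the actin and microtubule skeletons, and together they make the LINC complex. In muscle this complex positions the many nuclei of a fibre, and mutations of LMNA, EMD and the nesprin genes are known causes of muscular dystrophy.

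Levels are given in FPKM, the fragments on a gene relative to its length and to all mapped fragments of the library. Levels of different genes can so be compared, but only roughly for genes with long and short forms, such as the nesprin genes. A single length is used per gene. Mapped fragments per library, recovered from the steps between FPKM values, ranged from 18581300 to 26073153. All 10 genes passed the filter on low values (at least 0.1 FPKM in at least 3 libraries), and the lowest fragment number of any of them in a library was 169 (Lmnb1) and the highest 47437 (Lmna). Pparg itself lay between 3.12 and 7.56 FPKM in the WT libraries and between 28.0 and 92.7 FPKM in the PPARγ/+ libraries. The muscle markers (Myod1, Myf5, Des, Myog, Myh3, Ckm, Acta1 and Tnnt3) summed to between 134.8 and 307 FPKM in WT_0d, 962 and 4236 in WT_5d, 61.9 and 97.6 in PPARγ/+_0d, and 1038 and 1223 in PPARγ/+_5d. All 8 were detected in every group, and from 0d to 5d 5 were higher and 1 (Myf5) was lower in WT cells and 8 were higher in PPARγ/+ cells at the adjusted p of at most 0.05 explained with the first comparison. By this rule 14.1% of all genes tested were higher and 23.0% lower in WT cells, and 18.8% higher and 28.8% lower in PPARγ/+ cells. The lowest of the WT_5d sums was that of replicate 3, which also stood apart on the second principal component at -11.8, against 54.4 and 32.1 for the other libraries of its group. The highest WT_0d sum was that of replicate 2. Markers of dividing cells (Mki67, Top2a, Ccnb1, Cdk1, Pcna and Mcm2) summed to between 169 and 283 FPKM on 0d and between 35.3 and 44.2 FPKM on 5d, and all 6 fell in both cell types. Adipocyte markers (Adipoq, Fabp4, Plin1, Cidec, Cfd and Lep) summed to at most 0.0794 FPKM in any WT library, to between 2.90 and 5.04 FPKM in PPARγ/+_0d and to between 13.3 and 67.2 FPKM in PPARγ/+_5d. Lep was listed at 0 in all 12 libraries, and the other 5 passed the filter only through PPARγ/+ libraries. Of them none was called from 0d to 5d in WT cells and 4 were higher in PPARγ/+ cells. Among these 4, Cfd passed the filter only through its PPARγ/+_5d libraries and so had to be higher on 5d. Plin1 reached 0.1 FPKM on 0d only in PPARγ/+_0d replicate 1 (0.185 FPKM). It would not have passed without its PPARγ/+_5d libraries, so its rise is a description. The part of these marker changes in the results below was not tested, and in bulk RNA a change in the share of a cell type cannot be told apart from a change of RNA per cell.

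The first question was how these genes changed over 5 days in each cell type. In WT cells, Syne1 rose and Lmna, Lmnb1, Lmnb2, Syne2, Syne3 and Tmpo fell by at least 2-fold. In PPARγ/+ cells, Syne1 rose and the 3 lamin genes fell by at least 2-fold, while Syne2, Syne3, Tmpo, Emd and Sun2 fell by smaller amounts. Sun1 was not called in either. Fold changes and p-values are those of limma on log2(FPKM + 0.1), fitted to all 18023 genes that passed the filter. At an unadjusted p of at most 0.05 with a change of at least 2-fold, 1 of the 10 genes rose and 6 fell in WT cells. The background was 8.94% of all genes tested for a rise and 7.53% for a fall. In PPARγ/+ cells 1 rose and 3 fell, against backgrounds of 9.11% and 6.06%. At a Benjamini-Hochberg adjusted p of at most 0.05 with no fold threshold, 1 gene was higher and 8 were lower on 5d in WT cells, where 14.1% of all genes were higher and 23.0% lower. The same counts, 1 higher and 8 lower, were found in PPARγ/+ cells, where the backgrounds were 18.8% and 28.8%. The 10 genes had a median log2 fold change of -1.09 in WT and -0.88 in PPARγ/+ cells, and all genes tested had medians of -0.08 and -0.10. Scaling the libraries by median ratios moved the median of all genes to 0.02 in both cell types. It took Lmna and Lmnb2 in WT cells under the 2-fold threshold, at -0.94 and -0.99, which left 5 of the 10 genes called there.

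**Figure D1:**
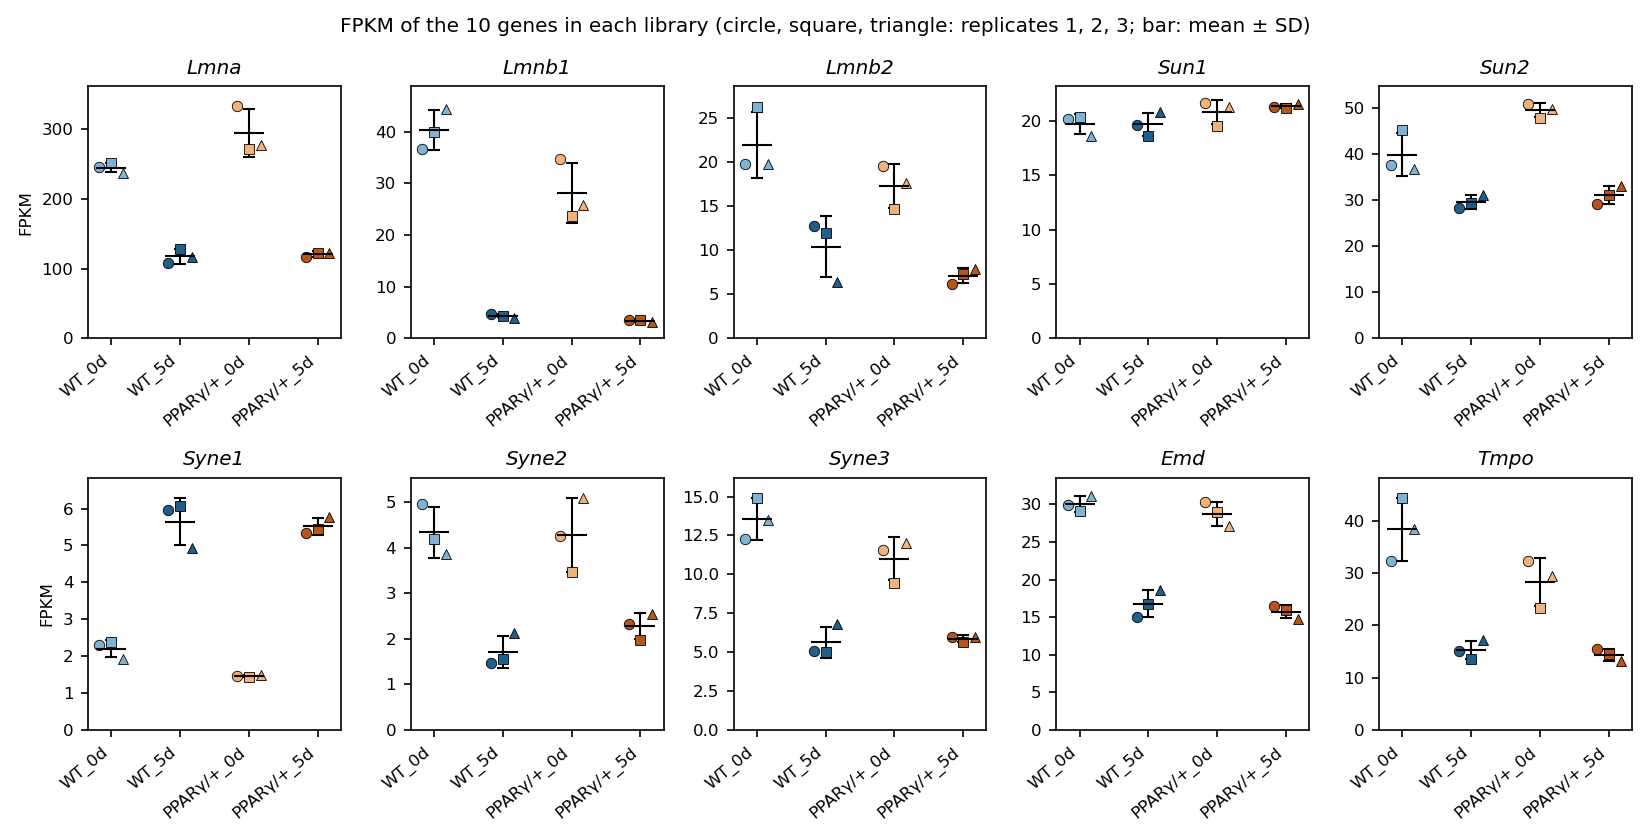
FPKM (vertical axes, from 0, with a scale for each gene) of the 10 genes in the 4 groups; each marker is 1 library and the bars give the mean ± SD of 3. Lmnb1 stood between 23.6 and 44.4 FPKM on 0d and between 3.07 and 4.63 FPKM on 5d, Syne1 was the gene with higher levels on 5d in both cell types, and Sun1 lay between 18.7 and 21.6 FPKM in all 12 libraries.

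Among the lamins, Lmnb1 changed by the largest factor. Its levels in WT cells were 36.7, 40.02 and 44.4 FPKM on 0d and 4.63, 4.41 and 4.002 FPKM on 5d. In PPARγ/+ cells they were 34.7, 23.6 and 25.9 FPKM on 0d and 3.52, 3.61 and 3.07 FPKM on 5d. No library of 5d came near one of 0d in either cell type. limma gave a log2 fold change of -3.18 (SE 0.10, adjusted p 9.82e-05) in WT cells, which is 9.09-fold, and -2.99 (SE 0.15, adjusted p 3.00e-05) in PPARγ/+ cells, which is 7.96-fold. The lamin B1 protein is found in nearly all cell types and its loss is a known mark of senescent cells.

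Lmna was the most abundant of the 10 genes in every group. It stood at 246, 251 and 237 FPKM in WT_0d and at 107, 128 and 116 FPKM in WT_5d. In PPARγ/+ cells the levels were 333, 271 and 278 FPKM on 0d and 116, 123 and 123 FPKM on 5d. The libraries of the 2 days did not overlap in either cell type, and the 5d levels of the cell types did overlap. By limma, the change was -1.06 on the log2 scale (SE 0.09, limma adjusted p 0.000585) in WT cells and -1.28 (SE 0.09, limma adjusted p 9.52e-05) in PPARγ/+ cells.

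Lmnb2, the other B-type lamin gene, was less even among replicates. WT cells held 19.7, 26.3 and 19.8 FPKM on 0d and 12.7, 11.98 and 6.39 FPKM on 5d, the lowest in replicate 3. PPARγ/+ cells held 19.6, 14.7 and 17.6 FPKM on 0d and 6.20, 7.35 and 7.82 FPKM on 5d. All libraries of 5d lay under those of 0d. In WT cells the log2 fold change was -1.12 (SE 0.28, limma adjusted p 0.0215), and the interval at 95% ran from -1.79 to -0.45. It was -0.81 without WT_5d replicate 3 and -0.99 without WT_0d replicate 2, both short of 2-fold, and in the latter case the adjusted p rose to 0.0745. In PPARγ/+ cells it was -1.26 (SE 0.13, limma adjusted p 0.000378).

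The 3 lamin genes fell by different factors, and the make-up of the lamin RNA was compared between groups. The A-type share, Lmna as a percentage of the summed FPKM of the 3 genes, was 79.7% ± 1.42 (SD, n = 3) in WT_0d and 88.8% ± 2.86 in WT_5d. It was 86.7% ± 0.836 in PPARγ/+_0d and 92.0% ± 0.249 in PPARγ/+_5d. The groups did not overlap between days in either cell type, nor between cell types on either day. In an exact two-sided permutation test each of these 4 differences reached p = 0.1, the smallest that 3 libraries against 3 allow, so the design cannot reach 0.05. Adjusted over the 12 share comparisons computed, that p was 0.133. Within the B-type RNA, Lmnb1 made up 64.9% ± 4.42 in WT_0d and 30.7% ± 6.77 in WT_5d, and 61.7% ± 2.21 and 32.4% ± 4.03 in PPARγ/+ cells, so that Lmnb2 was the larger B-type component on 5d and the smaller on 0d.

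**Figure D2:**
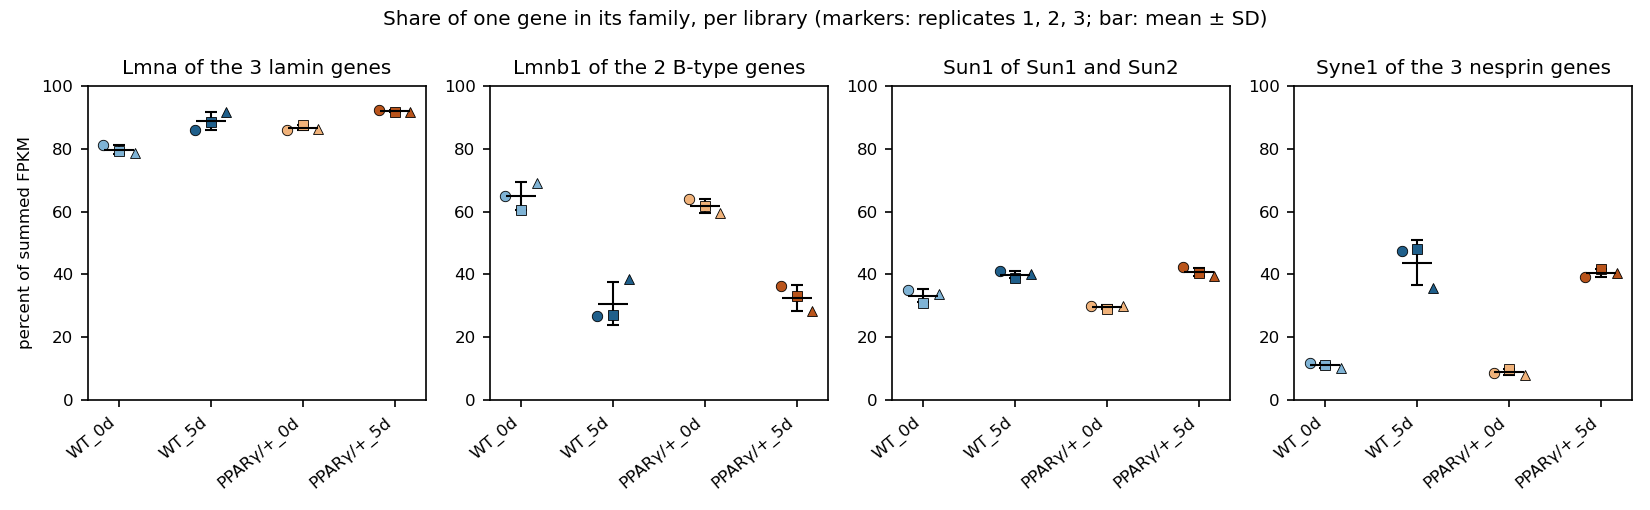
Percentage of the summed FPKM of a gene family (vertical axis, from none to all) contributed by 1 gene in each library, with mean ± SD of 3 libraries. The mean Lmna share went from 79.7% to 88.8% in WT cells, the Lmnb1 share of the B-type genes stood lower on 5d and the Syne1 share of the nesprins stood higher on 5d in both cell types.

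The SUN genes parted from each other. Sun1 was at 20.1, 20.3 and 18.7 FPKM in WT_0d and at 19.6, 18.7 and 20.8 FPKM in WT_5d. In PPARγ/+ cells it was at 21.6, 19.6 and 21.3 FPKM on 0d and at 21.3, 21.2 and 21.6 FPKM on 5d. The days overlapped in both cell types. Its log2 fold change was -0.0028 (95% interval -0.18 to 0.18) in WT cells and 0.04 (95% interval -0.09 to 0.17) in PPARγ/+ cells, with limma adjusted p of 0.983 and 0.605. Under quantile normalization the value in PPARγ/+ cells was 0.19 with an adjusted p of 0.0316, and under median-ratio scaling the values were 0.13 in WT cells and 0.17 in PPARγ/+ cells.

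Sun2 had the higher level of the pair in every group. It was at 37.5, 45.3 and 36.8 FPKM in WT_0d and at 28.3, 29.4 and 31.2 FPKM in WT_5d. The PPARγ/+ libraries held 50.9, 47.9 and 49.8 FPKM on 0d and 29.2, 31.1 and 33.0 FPKM on 5d. Each 5d library lay under each 0d library of its cell type. The log2 fold change was -0.42 (SE 0.10, limma adjusted p 0.0180) in WT cells and -0.67 (SE 0.06, limma adjusted p 0.000217) in PPARγ/+ cells. In WT cells the adjusted p rose to 0.0781 with median-ratio scaling, to 0.0522 with quantile normalization, to 0.0530 without WT_5d replicate 1 and to 0.0648 without WT_5d replicate 2. The Sun1 share of the summed SUN FPKM was 33.2% ± 2.02 (SD, n = 3) in WT_0d and 39.9% ± 1.02 in WT_5d. In PPARγ/+ cells it was 29.6% ± 0.528 on 0d and 40.8% ± 1.32 on 5d. The days did not overlap (exact permutation p = 0.1 in each cell type), and the cell types did not overlap on 0d (p = 0.1) but did on 5d (exact permutation p = 0.5).

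Syne1, which encodes nesprin-1, was the gene of the 10 that rose. Nesprin-1 is the main nesprin of muscle nuclei and comes in a giant form and in short ones. WT cells held 2.29, 2.39 and 1.93 FPKM on 0d and 5.95, 6.06 and 4.92 FPKM on 5d, the lowest of these in replicate 3. PPARγ/+ cells held 1.45, 1.42 and 1.49 FPKM on 0d and 5.34, 5.44 and 5.78 FPKM on 5d. The 5d libraries of the cell types overlapped, whereas the 0d libraries did not overlap. On the log2 scale the rise was 1.32 (SE 0.14, limma adjusted p 0.000965), or 2.49-fold, in WT cells and 1.85 (SE 0.08, limma adjusted p 2.23e-05), or 3.62-fold, in PPARγ/+ cells. The values count fragments over the whole gene, so giant and short forms cannot be told apart.

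Syne2, which encodes nesprin-2 and is also found as giant and short forms, moved the other way. In WT cells it was at 4.96, 4.20 and 3.87 FPKM on 0d and at 1.47, 1.55 and 2.12 FPKM on 5d. In PPARγ/+ cells it was at 4.25, 3.47 and 5.09 FPKM on 0d and at 2.32, 1.97 and 2.54 FPKM on 5d. The days did not overlap in either cell type. The log2 fold change was -1.30 (SE 0.18, limma adjusted p 0.00251) in WT cells, where adding 1 to the FPKM in place of 0.1 gave -0.98, and -0.87 (SE 0.16, limma adjusted p 0.00458) in PPARγ/+ cells.

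Syne3 encodes nesprin-3, which binds plectin and so reaches the intermediate filaments. Its levels were 12.3, 14.9 and 13.5 FPKM in WT_0d and 5.10, 4.99 and 6.79 FPKM in WT_5d. They were 11.6, 9.47 and 11.996 FPKM in PPARγ/+_0d and 5.98, 5.64 and 5.98 FPKM in PPARγ/+_5d. The 0d libraries were all above the 5d libraries. Its log2 fold change was -1.26 (SE 0.15, limma adjusted p 0.00136) in WT cells and -0.89 (SE 0.10, limma adjusted p 0.000508) in PPARγ/+ cells.

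With Syne1 up and the other nesprin genes down, Syne1 made up 10.9% ± 0.891 (SD, n = 3) of the summed nesprin FPKM in WT_0d and 43.7% ± 7.07 in WT_5d. In PPARγ/+ cells its share was 8.77% ± 0.991 on 0d and 40.4% ± 1.29 on 5d. The share of WT_5d replicate 3, 35.6%, was the lowest of the 6 on 5d. The Syne3 share went from 67.4% ± 3.96 to 43.1% ± 5.19 in WT cells and from 65.8% ± 1.20 to 43.0% ± 1.03 in PPARγ/+ cells; these Syne1 and Syne3 shares are given as descriptions. The Syne2 share was 21.6% ± 3.26 in WT_0d, 13.1% ± 1.93 in WT_5d, 25.4% ± 1.76 in PPARγ/+_0d and 16.6% ± 1.38 in PPARγ/+_5d. It did not overlap between the days (exact permutation p = 0.1 in each cell type) and overlapped between the cell types on both days (exact permutation p = 0.3 on 0d and 0.2 on 5d).

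The promoters of Syne1 and Syne2 are shown because the genes moved in opposite directions and hold the same motif. The windows come from RefSeq on GRCm38.p6, run from 250 bases before to 50 bases after a transcript start and are written 5′ to 3′ in the direction of the gene. The table held 15 windows for 9 of the 10 genes, and no motif searched contains another. They were searched on both strands for the E-box CAGCTG, a form that MyoD and myogenin bind, for CCAAT, the box bound by NF-Y, and for TTTGAA or TTTAAA, the element called CHR of many cell cycle genes. CAGCTG was found in 2 of the 15 windows, at the start of the long Syne1 transcripts and at the start of Syne2, and in 16.3% of all 32851 windows. CCAAT was found in 6 of the 15 and in 37.4% of all, and TTTGAA or TTTAAA in 3 of the 15 and in 27.6% of all. The other 2 Syne1 windows, which include the start of a short transcript at chr10:5069014-5069313, held none of the 3 motifs. Capitals mark the E-box in the following windows, of the minus strand at chr10:5550643-5550942 for Syne1 and of the plus strand at chr12:75818068-75818367 for Syne2. Such a match describes letters and is not a measured site.
Syne1: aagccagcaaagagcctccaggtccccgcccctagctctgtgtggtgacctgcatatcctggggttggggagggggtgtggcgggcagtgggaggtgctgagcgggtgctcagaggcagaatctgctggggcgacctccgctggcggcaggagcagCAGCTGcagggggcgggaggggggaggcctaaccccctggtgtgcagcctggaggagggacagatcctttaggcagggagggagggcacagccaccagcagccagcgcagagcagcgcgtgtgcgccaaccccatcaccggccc
Syne2: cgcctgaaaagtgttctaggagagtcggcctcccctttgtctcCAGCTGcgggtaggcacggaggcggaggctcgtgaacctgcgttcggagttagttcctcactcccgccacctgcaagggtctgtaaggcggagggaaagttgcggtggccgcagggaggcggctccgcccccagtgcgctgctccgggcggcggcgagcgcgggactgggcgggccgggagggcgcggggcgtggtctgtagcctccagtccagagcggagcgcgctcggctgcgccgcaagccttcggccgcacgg

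Emd encodes emerin and Tmpo the LAP2 proteins, which share the LEM domain that binds the chromatin protein BAF. Emd was at 29.9, 29.1 and 31.2 FPKM in WT_0d and at 15.0, 16.8 and 18.6 FPKM in WT_5d. In PPARγ/+ cells it was at 30.3, 28.9 and 27.1 FPKM on 0d and at 16.4, 15.9 and 14.8 FPKM on 5d. The days did not overlap, while the cell types overlapped on each day. Emd had a log2 fold change of -0.84 (SE 0.09, limma adjusted p 0.00124) in WT cells and -0.87 (SE 0.07, limma adjusted p 0.000120) in PPARγ/+ cells.

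Tmpo stood at 32.2, 44.4 and 38.5 FPKM in WT_0d and at 15.1, 13.6 and 17.1 FPKM in WT_5d. PPARγ/+ libraries had 32.3, 23.3 and 29.4 FPKM on 0d and 15.5, 14.6 and 13.1 FPKM on 5d. The 5d levels again lay under all 0d levels. Tmpo had a log2 fold change of -1.31 (SE 0.14, limma adjusted p 0.00108) in WT cells and -0.96 (SE 0.13, limma adjusted p 0.00109) in PPARγ/+ cells, and the latter passed 2-fold without PPARγ/+_0d replicate 2 (-1.10) or PPARγ/+_5d replicate 1 (-1.02). One of its RefSeq windows, on the minus strand of GRCm38.p6 at chr10:91171570-91171869, held both CCAAT, at 2 places, and TTTAAA. The Sun2 window at chr15:79742487-79742786 also held CCAAT at 2 places and TTTGAA or TTTAAA at 1. The Tmpo window is shown as an example of both motifs in 1 window, with these matches in capitals.
Tmpo: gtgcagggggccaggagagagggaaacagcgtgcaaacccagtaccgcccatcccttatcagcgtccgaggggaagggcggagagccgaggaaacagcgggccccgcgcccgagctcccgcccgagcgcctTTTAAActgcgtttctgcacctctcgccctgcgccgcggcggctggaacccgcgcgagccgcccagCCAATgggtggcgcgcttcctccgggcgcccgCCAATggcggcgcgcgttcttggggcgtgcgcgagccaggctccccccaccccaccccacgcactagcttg

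**Figure D3:**
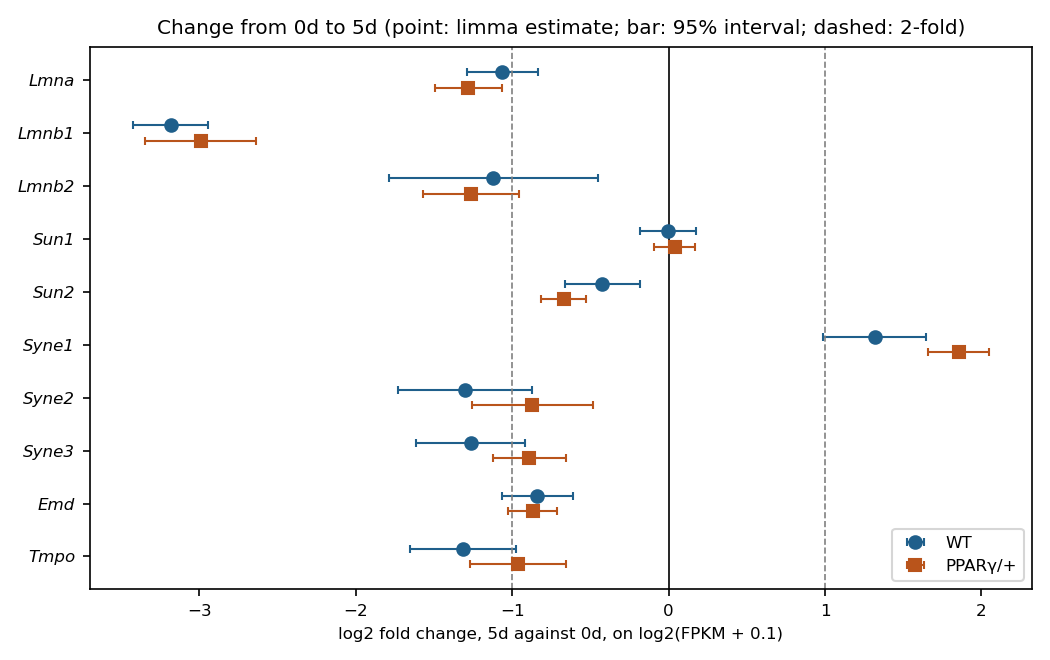
log2 fold change of each gene from 0d to 5d (horizontal axis, on log2(FPKM + 0.1)) in WT cells (circles) and PPARγ/+ cells (squares), with limma's 95% intervals and dashed lines at 2-fold. Lmnb1 lay near -3.18 and -2.99, Syne1 alone lay to the right of 0 beyond its interval, and the Sun1 intervals of both cell types crossed 0.

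The order of the levels moved with the days more than with the cell type. In WT_0d the order of the means was Lmna, Lmnb1, Sun2, Tmpo, Emd, Lmnb2, Sun1, Syne3, Syne2 and Syne1, and the libraries overlapped between Lmnb1 and Sun2, Sun2 and Tmpo, and Lmnb2 and Sun1. In WT_5d it was Lmna, Sun2, Sun1, Emd, Tmpo, Lmnb2, Syne1, Syne3, Lmnb1 and Syne2, with overlap of Emd with Tmpo and of Syne1 with Syne3. Lmnb1 thus went from the second place to the ninth. In PPARγ/+_0d the order was Lmna, Sun2, Emd, Tmpo, Lmnb1, Sun1, Lmnb2, Syne3, Syne2 and Syne1, where Emd and Tmpo, Tmpo and Lmnb1, and Sun1 and Lmnb2 overlapped. PPARγ/+_5d had the order of WT_5d except that Syne3 stood above Syne1, and these neighbours overlapped, as did Emd and Tmpo.

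The second question was whether the cell types differed on either day. On 0d, Lmnb1 and Syne1 were lower in PPARγ/+ cells at an adjusted p of at most 0.05 (2 of the 10 genes, with 3.37% of all genes lower) and none of the 10 was higher (2.20% of all genes). Syne1 was 1.48-fold lower, with a log2 difference of -0.56 (SE 0.11, limma adjusted p 0.0148), and this call was lost without WT_0d replicate 2 (0.0582) or PPARγ/+_0d replicate 2 (0.0596). Lmnb1 was 1.45-fold lower, with a log2 difference of -0.54 (SE 0.13, limma adjusted p 0.0416). That call was lost in 13 of 20 alternatives, with an adjusted p of up to 0.153. PPARγ/+_0d replicate 2 had the lowest Lmnb1 level of the 0d libraries and, at 169 FPKM, the lowest sum of dividing cell markers. These sums overlapped between the cell types, at 216 to 283 FPKM in WT_0d and 169 to 251 FPKM in PPARγ/+_0d. Of the 6 markers only 1 was called on 0d. It was Pcna, lower in PPARγ/+_0d (log2 difference -0.75, limma adjusted p 0.00420), with 3.37% of all genes lower. The others ran from -0.64 for Mcm2 (limma adjusted p 0.0589) to 0.0014 for Ccnb1. The part of these marker levels in the Lmnb1 difference was not tested. Sun2 was 1.25-fold higher without overlap (log2 difference 0.32, SE 0.08), and its limma adjusted p of 0.0514 missed the threshold. It passed at 0.0208 without WT_0d replicate 2, at 0.0486 without WT_5d replicate 1, at 0.0342 without WT_5d replicate 3 and at 0.0435 with a filter at 1 FPKM. Lmna had a log2 difference of 0.26 (adjusted p 0.137 in limma), Tmpo of -0.44 (adjusted p 0.105 in limma) and Syne3 of -0.30 (adjusted p 0.207 in limma). On 0d the cell types overlapped for Tmpo but not for Lmna or Syne3.

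On 5d none of the 10 genes passed an adjusted p of at most 0.05 in limma, against 0.893% of all genes higher and 0.738% lower in PPARγ/+ cells. Lmnb1 had a log2 difference of -0.35 (95% interval -0.64 to -0.05, limma adjusted p 0.250). That of Syne2 was 0.40 (95% interval 0.01 to 0.79, limma adjusted p 0.310). Lmnb2 differed by -0.48 (95% interval -0.99 to 0.03), and without WT_5d replicate 3 by -0.79 with a limma adjusted p of 0.0102. For Syne1 the interval of the difference was -0.27 to 0.21, and for Lmna -0.16 to 0.25.

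The third question was whether the 2 cell types differed in their change over the 5 days. The interaction of cell type and day passed an adjusted p of at most 0.05 in limma for none of the 10 genes, with 0.583% of all genes called as higher and 0.178% as lower in PPARγ/+ cells. Among the 10, Syne1 had the largest interaction. Its fitted rise in PPARγ/+ cells exceeded that in WT cells by 0.54 on the log2 scale (SE 0.16, limma unadjusted p 0.00529, adjusted p 0.171). Over the alternatives its adjusted p ranged from 0.131 to 0.372. The interaction was 0.43 for Syne2, 0.37 for Syne3 and 0.35 for Tmpo, the genes that passed 2-fold in WT cells and not in PPARγ/+ cells, with limma adjusted p of 0.554, 0.457 and 0.553. These genes are therefore not shown to differ in their change between the cell types.

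Other genes of the nuclear envelope were counted to place the 10 among their neighbours. Of 12 genes of the inner membrane and the lamina, 5 were lower in WT cells and 8 in PPARγ/+ cells on 5d at the adjusted p, and none was higher; 23.0% and 28.8% of all genes tested were lower and 14.1% and 18.8% higher. With median-ratio scaling the counts were 4 lower in each cell type and 1 higher in PPARγ/+ cells. Nrm, which encodes nurim, fell by 1.98 and 2.18 on the log2 scale in WT and PPARγ/+ cells (SE 0.31 and 0.15). Lbr, which encodes the lamin B receptor, fell by 1.36 and 1.26 (SE 0.10 and 0.10), from 10.6 to 4.06 FPKM in the mean of WT cells and from 8.88 to 3.65 FPKM in PPARγ/+ cells. Banf1, which encodes BAF, fell by 1.03 and 1.08 (SE 0.10 and 0.11). Between the cell types 1 of the 12 was lower in PPARγ/+ cells on 0d (3.37% of all genes were), Tmem201 (log2 difference -0.40, limma adjusted p 0.0454), a partner of SUN2 in nuclear movement, and it was named after its value was seen.

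Of 5 genes that process prelamin A, none passed 2-fold. At the adjusted p, Rce1 and Fntb were lower in WT cells on 5d by 0.44 and 0.43 on the log2 scale, and in PPARγ/+ cells by 0.53 and 0.49. With Zmpste24 these were 2 of 5 genes lower in WT cells and 3 of 5 in PPARγ/+ cells, beside 23.0% and 28.8% of all genes. Without WT_0d replicate 2 the count in WT cells was 1. Zmpste24, the protease that finishes the cut of prelamin A, was lower in PPARγ/+ cells (log2 fold change -0.38, limma adjusted p 0.00153) and had a value of -0.22 in WT cells (limma adjusted p 0.123). Fnta, a subunit of farnesyltransferase, was the higher in PPARγ/+_0d when set against WT_0d (log2 difference 0.31, limma adjusted p 0.0141). It was 1 of the 5, beside 2.20% of all genes, and it was named after its value was seen. Of 6 further LINC genes only Spag4 and Syne4 passed the filter, both under 0.5 FPKM, and neither was called in any comparison in limma as fitted. Spag4 in WT cells had a log2 fold change of -0.58 (limma unadjusted p 0.0288, adjusted p 0.0698, days not overlapping). With quantile normalization 1 of these genes was called lower in WT cells. Sun3 and Sun5 were listed at 0 in all libraries.

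Envelope proteins enriched in muscle formed the group that rose. Of its 5 genes 4 passed the filter and all 4 rose by at least 2-fold in WT cells at an unadjusted p of at most 0.05, of which 3 passed the adjusted p, beside 8.94% and 14.1% of all genes. The gene that missed it was Wfs1 (log2 fold change 1.15, limma adjusted p 0.0649), named after its value was seen. Its days overlapped in WT cells, at 13.9 FPKM in WT_5d replicate 3 and 14.8 FPKM in WT_0d replicate 2. In PPARγ/+ cells 3 rose by at least 2-fold and all 4 passed the adjusted p, beside 9.11% and 18.8% of all genes. One of the 4, Klhl31, would not have passed the filter without its 5d libraries, so its rise is given as a description. Of its 0d libraries only WT_0d replicate 2 reached 0.1 FPKM. Tmem38a, a potassium channel of the sarcoplasmic reticulum and nuclear envelope, was at 7.02, 7.08 and 5.30 FPKM in WT_0d and at 101, 82.1 and 27.6 FPKM in WT_5d, lowest in replicate 3. In PPARγ/+ cells it was at 5.32, 5.95 and 4.83 FPKM on 0d and at 21.6, 22.0 and 22.0 FPKM on 5d. Its log2 fold change was 3.24 (SE 0.48) in WT cells and 2.01 (SE 0.08) in PPARγ/+ cells, and the interaction was not called (-1.23, limma adjusted p 0.375). Plpp7 rose by 2.48 (SE 0.37) and 1.499 (SE 0.19) on the log2 scale. Klhl31 was at 0.0873, 0.220 and 0.0865 FPKM in WT_0d and between 0.683 and 2.47 FPKM in WT_5d, and went from under 0.01 FPKM in each PPARγ/+_0d library to between 0.812 and 0.888 FPKM in PPARγ/+_5d.

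Of 31 nucleoporin genes, the parts of the nuclear pore, 30 were matched and tested. At the adjusted p, 27 were lower and none was higher on 5d in WT cells, and 29 were lower and 1 was higher in PPARγ/+ cells. The backgrounds over all genes were 23.0% and 28.8% for lower and 14.1% and 18.8% for higher. Medians of the log2 fold change over the 30 were -0.83 (WT) and -0.69 (PPARγ/+). With median-ratio scaling, 25 and 27 were lower and the medians were -0.71 and -0.56. At least 2-fold falls numbered 10 in WT cells and 5 in PPARγ/+ cells, where 7.53% and 6.06% of all genes fell so. Ndc1, a membrane-bound nucleoporin, fell by 1.86 (SE 0.15) and 1.67 (SE 0.14) on the log2 scale. Aaas, which encodes aladin, fell by 1.85 (SE 0.08) and 1.67 (SE 0.08), and Nup43 fell by 1.499 (SE 0.09) in WT cells. The gene counted as higher was Nup210, a pore membrane protein known to be induced in muscle differentiation. It was at 0.0469, 0.0146 and 0.0306 FPKM in PPARγ/+_0d and at 0.331, 0.3996 and 0.591 FPKM in PPARγ/+_5d, and in WT cells under 0.05 FPKM in each 0d library and at 0.150, 0.148 and 0.0629 FPKM on 5d. It passed the filter only through its 5d libraries and so had to be higher on 5d, which leaves its levels as a description. On 5d Nup210 was higher in PPARγ/+ than in WT cells (log2 difference 1.29, limma adjusted p 0.0479). It was 1 of 30, beside 0.893% of all genes, and its PPARγ/+_5d libraries alone met the filter. Its interaction of cell type and day was not called (1.18, limma adjusted p 0.251), and without WT_5d replicate 3, 1 nucleoporin was called higher in WT cells too. On 0d 2 of the 30 were lower in PPARγ/+ cells, beside 3.37% of all genes. They were Nup107 (log2 difference -0.52, limma adjusted p 0.0341) and Nup188 (-0.30, limma adjusted p 0.0243), named after their values were seen.

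**Figure D4:**
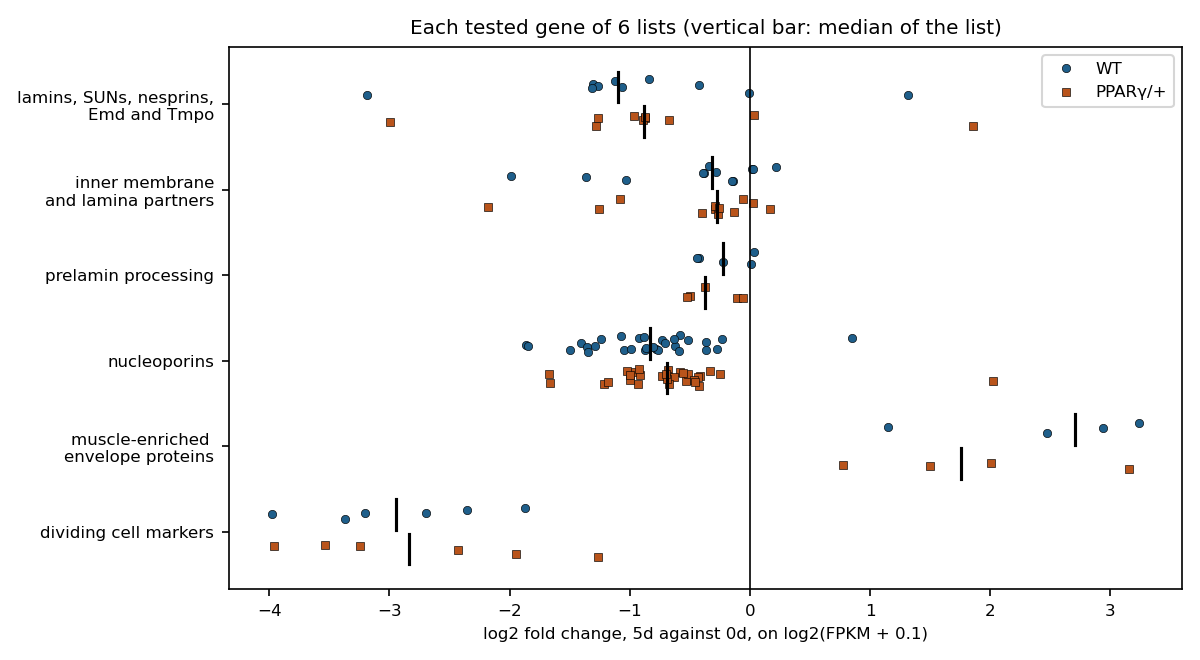
log2 fold change from 0d to 5d (horizontal axis, on log2(FPKM + 0.1)) of each tested gene of 6 lists, in WT cells (circles) and PPARγ/+ cells (squares); vertical bars mark the median of a list. The nucleoporins had medians of -0.83 and -0.69 with Nup210 as the point to the right, the muscle-enriched proteins had medians of 2.71 and 1.75, and the dividing cell markers had medians of -2.95 and -2.84.

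The genes are placed on GRCm38 by the GENCODE annotation. Lmna spans chr3:88480147-88509956 on the minus strand, Lmnb1 chr18:56707813-56753424 on the plus strand, Lmnb2 chr10:80901203-80918245 on the minus strand and Sun1 chr5:139200637-139249840 on the plus strand. Sun2 spans chr15:79724070-79742536, Syne1 chr10:5020917-5551482 and Tmpo chr10:91147571-91181315, all on the minus strand. Syne2 spans chr12:75818134-76110926 on the plus strand, Syne3 chr12:104929933-105009809 on the minus strand and Emd chrX:74254687-74261548 on the plus strand. Exons of Emd share 343 bases with Gm14686 on the same strand, and those of Syne2 share 10 bases with Mir5101. Exons of Sun1, Sun2 and Tmpo share 302, 147 and 244 bases with genes on the opposite strand. The kit does not mark strand, so reads in these stretches cannot be assigned to 1 of the genes.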

How the data were processed

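RNA of C2C12 cells was extracted with TRIzol, made into libraries with a TruSeq kit that does not mark strand and sequenced in pairs, 3 libraries for each of 4 groups. After trimming with Trim Galore and alignment with STAR, the authors counted reads per Ensembl gene with HTSeq, and they deposited FPKM. The methods name GRCm38, whereas the submitters' processing notes list mm9; coordinates here are GRCm38 (GENCODE M21). A second table deposited by the authors holds log2(FPKM + 1), which differed from the first by at most 5.3e-14 and was not used further. FPKM normalises to mapped fragments, so a change in abundant RNAs moves all other values.

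Counts were not analysed. Whole fragments were recovered from FPKM steps and exonic lengths for 21224 of 27138 expressed genes (78.2%, within 0.01). For Syne1, Syne3, Sun2 and Tmpo the length was inferred. They served only to describe depth. limma (version 3.58.1, R 4.3.3, empirical Bayes with trend) was fitted to log2(FPKM + 0.1) of 18023 genes with at least 0.1 FPKM in at least 3 libraries, within each cell type (its own libraries) for time, and over all 12 for cell type and interaction, with Benjamini-Hochberg adjustment over all genes; fold changes of low genes are understated. Time was called at p of at most 0.05 and 2-fold, as in the methods of the study, and at an adjusted p of at most 0.05. Shares were compared by exact permutation tests in Python 3.11.15 (scipy 1.17.1). The fit was tested on simulated data. The members and lists were chosen with earlier results of these data known. All 10 members are named. From each list the text takes up to 3 genes per time comparison with the largest change among those called at the adjusted p without overlap between days, besides all marker genes and, for each member, the 3 genes most like it; others are named as such. Nup62 was not matched. Alternatives were pseudocounts of 1 and 0.01, no filter or a filter at 1 FPKM, median-ratio scaling, quantile normalization, no trend, a replicate block, 1 fit for all libraries, and each library left out.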

Additional observations from a re-analysis of the deposited data

Results flagged for a closer look

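Myf5, a myogenic factor among the muscle markers, changed differently over time in the cell types. It was at 11.3, 13.2 and 11.6 FPKM in WT_0d and at 5.96, 3.53 and 3.79 FPKM in WT_5d, and at 3.66, 4.25 and 3.96 FPKM in PPARγ/+_0d and 5.58, 6.27 and 8.47 FPKM in PPARγ/+_5d. From 0d to 5d its log2 fold change was -1.46 (WT) and 0.74 (PPARγ/+), and the interaction was 2.20 on the log2 scale (limma adjusted p 0.00844). It was the only marker or envelope gene of the lists whose interaction passed an adjusted p of at most 0.05.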

How the results depend on the processing

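No called direction of the 10 genes turned under any alternative run. Of 204 recomputed counts of called genes among the 10 and family shares, 190 stayed within a margin of the main value. The margin was a fixed ratio for counts, the SD within groups for shares and the sign for log2 ratios of shares. Counts inside the margin could still change, as the ranges over time below show. Outside the margin were only counts of genes called between the cell types. On 0d the count of 2 became 1 with no filter, with median-ratio scaling and without the trend, and ranged from 0 to 3 when 1 library was left out; on 5d it ranged from 0 to 1. Lmnb1 lost its 0d call without any 1 of the WT_0d libraries, WT_5d replicate 2, PPARγ/+_0d replicates 2 or 3, or any PPARγ/+_5d library. In WT cells the count at p and 2-fold ranged from 5 to 7 over all alternatives, and in PPARγ/+ cells from 4 to 6, reaching 6 without PPARγ/+_0d replicate 2. Lmnb2 in WT cells missed the adjusted p with no filter (0.0704) and without WT_0d replicates 1 (0.0592) or 3 (0.0600). Of 900 values for single genes, judged over time by p and 2-fold and between cell types by the adjusted p, 21 lost and 8 gained a call, and 8 more over time crossed the adjusted p of 0.05, all for Lmnb2, Sun2 or Sun1. Fits that left out 1 library kept 2 in its group.

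The main fits did not treat replicate numbers as pairs. Deviations of same-numbered libraries correlated between -0.068 and 0.083, and those of libraries with different numbers between -0.122 and 0.102. With the number as a replicate block, the count on 0d was 1 (Syne1), since Lmnb1 reached an adjusted p of 0.0657, and the 7 and 4 genes called over time at p and 2-fold in WT and PPARγ/+ cells were again 7 and 4; no other call of the 10 genes changed. Between 0d and 5d each PPARγ/+ library correlated best with its own number, and not every WT library did.

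The envelope and marker lists were recomputed under alternatives chosen after seeing the data: without WT_5d replicate 3, WT_0d replicate 2 or PPARγ/+_5d replicate 3, and with both scalings. Nucleoporins lower on 5d in WT cells numbered 27 without WT_5d replicate 3 and 24 without WT_0d replicate 2.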

Other observations

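For each of the 10 genes the 3 genes with the highest Pearson correlation over the 12 libraries were taken from 11680 genes with a mean of at least 1 FPKM. The libraries fall into 2 clusters by day, so these values mostly describe the difference between 0d and 5d and are given without a p. For Lmnb1 they were Actl6a, a subunit of chromatin remodelling complexes, at 0.999, Me2 at 0.997 and Cdc7, a kinase of replication origins, at 0.996. For Lmna they were Psrc1 (0.991), Cox18 (0.988) and Nmd3 (0.988), and for Lmnb2 they were Pkp4 (0.980), Tuba1b (0.979) and Cdc25b (0.979). Syne1 was most like Vwa1 (0.989), Ly6c2 (0.989) and Enho (0.988), Syne2 most like Kat6a (0.989), Ss18 (0.978) and Yeats2 (0.976), and Syne3 most like Hmgb1 (0.989), Ppp1cc (0.985) and Dsn1 (0.985). Sun2 came closest to Serpinb8 (0.979), Polr2m (0.973) and Ing1 (0.967), Tmpo to Cldn12 (0.989), Fam111a (0.987) and Gm6485 (0.985), and Emd to Lsm5 (0.995), Dpy30 (0.993) and Wdr1 (0.991). For Sun1, which did not differ beyond its spread between the days, the highest values were lower, at 0.841 for Kitl, 0.838 for Hltf and 0.836 for Gnaq.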
